A study of Mus musculus with 6 samples.

Results

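The genes examined here encode 39 antioxidant and oxidant-producing enzymes and their regulators. They were chosen by name: every row of the expression table whose Ensembl ID carries a listed symbol in the GENCODE mouse release M21 was taken, which gave 40 of the 54532 gene IDs in the table, because Nnt has 2 IDs. Of the 39 genes, 37 were among the 14225 genes tested, and Nox4 and Nnt were below the filter on low values. The members fall into 4 roles: 19 genes of superoxide and peroxide removal, 9 genes of glutathione synthesis, recycling and conjugation, 5 genes for the transcription factor Nrf2, its repressor Keap1 and 3 of its targets, and 6 genes of oxidant production and NADPH.

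RNA was sequenced from the left ventricular myocardium of male C57BL/6 mice in 6 libraries, 1 mouse each. The 3 HFpEF mice, a model of heart failure with preserved ejection fraction, were fed a diet with 60% of its energy from fat and given the nitric oxide synthase inhibitor L-NAME at 0.5 g/L in the drinking water for 12 weeks, starting at 6 to 8 weeks of age. The 3 Chow mice had standard chow and plain water over the same period. Diet and L-NAME were given together, so their effects cannot be told apart, and the sources used here do not name the substrain.

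Superoxide, formed by NADPH oxidases and by leakage from the mitochondrial respiratory chain, is converted to hydrogen peroxide by superoxide dismutases. Catalase, glutathione peroxidases and peroxiredoxins then reduce hydrogen peroxide or lipid peroxides, and they draw electrons from glutathione or thioredoxin and ultimately from NADPH. Each compartment has enzymes of its own. The heart is rich in mitochondria, where Sod2, Prdx3, Txn2 and Txnrd2 act. Nrf2, encoded by Nfe2l2, switches on many of these genes when its repressor Keap1 releases it.

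Expression was given as FPKM, the number of fragments per kilobase of exon after a scaling between libraries, a level that can be compared between genes because it is per length. Reads recovered from FPKM and exon length summed to 13076772 to 15574914 per Chow library and to 13461735 to 16027084 per HFpEF library. The deposited scaling is not that to the summed reads: it sets the libraries level on the median gene, and values scaled to the summed reads raise the median log2 fold change of all tested genes by 0.29, to 0.28. Differences given here are therefore relative to the median gene, and members that turn direction on the other scale are named. The third HFpEF library, called HFpEF 3 as the others are by their numbers, stood apart from the other 5. Its score on the first principal component, which held 42.3% of the variance, was 75.5, against 11.6 and 12.7 in the other HFpEF libraries and -35.8 to -31.7 in Chow. Its share of reads from mitochondrially encoded genes was 7.17%, against 20.1% and 22.6% in the other HFpEF libraries and 24.0% to 26.0% in Chow. Values of a fit without it are given beside the main results. The defining genes of ventricular cardiomyocytes were abundant in every library: the 8 listed genes summed to FPKM 15123 to 16643 in Chow and 10740, 11367 and 7235 in HFpEF, and all 8 were lower in every HFpEF library than in every Chow library. The listed liver genes Alb and Fgb were at 0 in all 6 libraries, although Hp, Cyp2e1 and Ahsg of the same list were above Chow in every HFpEF library. The 6 endothelial genes summed to FPKM 183 to 205 in Chow and 151 to 162 in HFpEF. Their median log2 fold change was -0.19, but it was 0.11 when scaled to the summed reads. The sums of the 7 red blood cell genes overlapped. In bulk tissue, fewer cells of a type and less RNA per cell cannot be told apart.

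No member met the study's criteria for a differentially expressed gene, here a limma adjusted p (Benjamini-Hochberg) under 0.05 together with a log2 fold change of 2 or more in size, which 0.0562% of all tested genes met. The study itself used another test, DESeq2, and reported more such genes than this fit called. Whether a member passed the study's own test cannot be read from this fit. Without a fold threshold, 0 members passed the limma adjusted p, as did 0.0984% of all tested genes, and voom on the recovered reads gave 0 members by either rule. At an unadjusted p under 0.05, 6 members were higher in HFpEF, against 10.2% of all tested genes, and 12 were lower, against 13.1%. The 6 were Gpx3, Sod3, Gpx1, Gpx7, Hmox1 and Ncf1, and the 12 were Prdx5, Gpx4, Prdx3, Sod2, Txnrd2, Sod1, Prdx6, Prdx2, Prdx1, Txn2, Cat and Nqo1. Both counts depended on the setting. Quantile normalization left 5 higher, against 8.27% of all tested genes, and 6 lower, against 11.8%. Scaling to the summed reads, chosen after seeing the data, gave 12 higher, against 25% of all tested genes, and 5 lower, against 4.15%. The higher count was 3 when Chow 1, Chow 2 or Chow 3 was left out, and the lower count was 8 without Chow 1 or Chow 2. In 9 members all HFpEF values exceeded all Chow values, as in 15.6% of all tested genes, and in 14 members all were below, as in 19.7%. Scaled to the summed reads, 16 members were above, as in 37.2% of all tested genes, and 7 were below, as in 6.83%. With 3 mice against 3, the exact two-sided permutation test cannot go below 0.1, and each of the 23 members without overlap in the deposited values reached that value. Over the 37 tested members the median log2 fold change was -0.06, beside -0.01 over all tested genes, and 14 of the values were positive and 23 negative. In the fit without HFpEF 3, 3 members were higher at an adjusted p under 0.05 (limma, no fold threshold), beside 2.85% of all tested genes. In the same fit 6 members were lower, beside 5.36%. With array weights, which count a library less the more it deviates from its group, 2 members were higher, beside 3% of all tested genes, and 6 were lower, beside 4.66%.

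**Figure D1:**
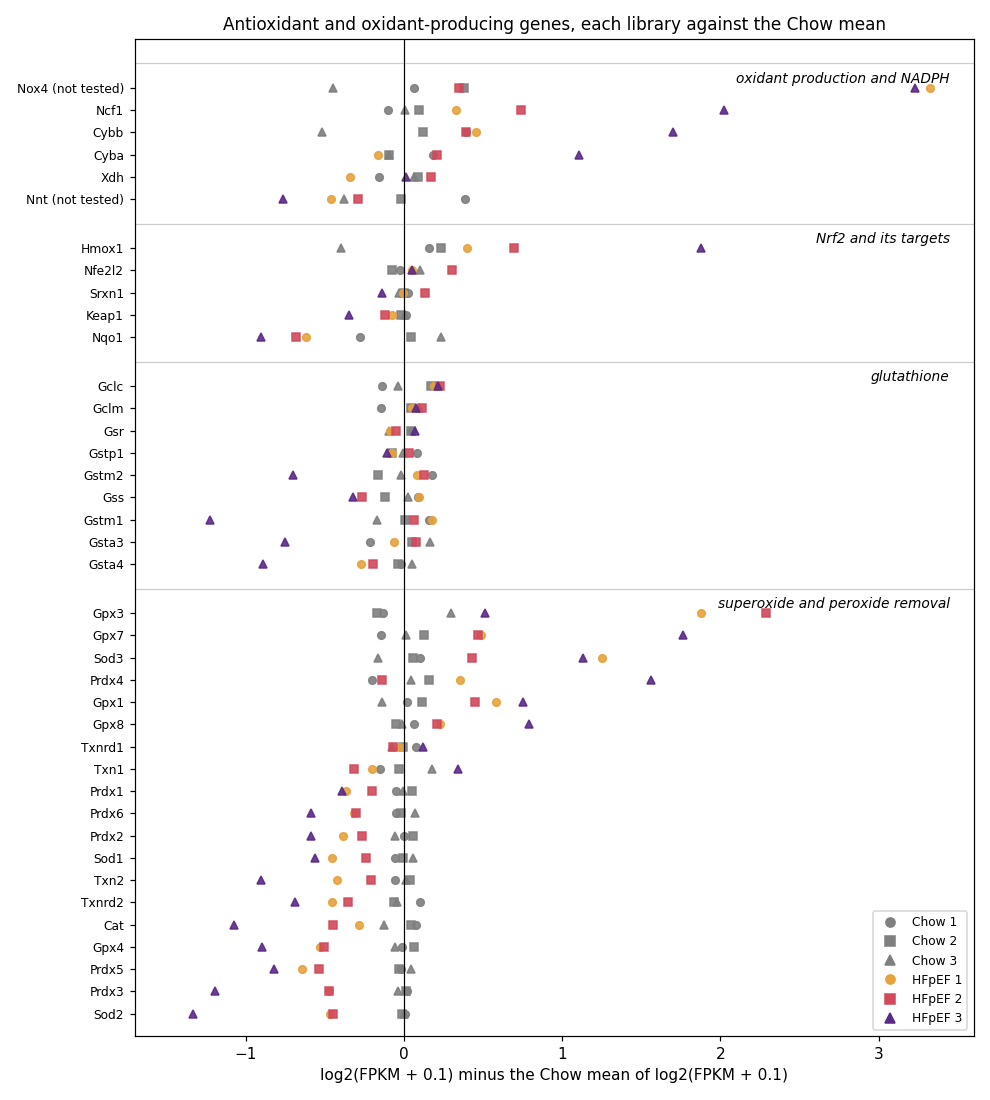
Values of the 39 genes in each of the 6 libraries, grouped by role and plotted as log2(FPKM + 0.1) minus the mean of that gene over the 3 Chow libraries (horizontal axis, log2 units). Gray symbols are Chow mice and colored symbols are HFpEF mice. In 9 of the 37 tested genes all colored symbols lie to the right of all gray ones, and in 14 they lie to the left. HFpEF 3 is often the farthest from 0.

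Among the genes of superoxide and peroxide removal, 4 of 19 were higher in HFpEF at an unadjusted p under 0.05 and 11 were lower. Over all tested genes the shares were 10.2% and 13.1%. Their median log2 fold change was -0.40, and it was -0.31 without HFpEF 3, -0.19 after quantile normalization and -0.11 when scaled to the summed reads. Differences between enzyme families were not tested. By the same rule, the superoxide dismutases included 1 higher and 2 lower genes, the glutathione peroxidases 3 higher and 1 lower, and the peroxiredoxins 0 higher and 5 lower. These counts moved with the scaling. Only Prdx3 and Prdx5 of the peroxiredoxins were lower after quantile normalization or when scaled to the summed reads. Of the dismutases, only Sod1 was lower in the first and only Sod2 in the second. Gpx1, Gpx3, Gpx7 and Gpx8 were higher in both. The summed FPKM of the 6 peroxiredoxins was 575, 584 and 577 in Chow and 419, 437 and 346 in HFpEF, with no overlap between groups. The summed FPKM of the 5 glutathione peroxidases was 413, 427 and 435 in Chow and 656, 785 and 401 in HFpEF. Only HFpEF 3 was not above Chow, and scaled to the summed reads it was above Chow as well.

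Gpx3 (ENSMUSG00000018339, chr11:54902453-54910377, plus strand, GRCm38) encodes the secreted glutathione peroxidase of plasma and extracellular fluid. Its FPKM was 98.0, 95.9 and 133 in Chow and 395, 527 and 154 in HFpEF. In the deposited values the groups did not overlap, but HFpEF 3 was close to the highest Chow library. The mean was 359 ± 189 in HFpEF and 109 ± 20.6 in Chow (SD, n = 3 each), and the rank of Gpx3 among the members by mean FPKM was 5 in Chow and 1 in HFpEF. The log2 fold change was 1.56 (SE 0.45), and the limma adjusted p was 0.136. Scaled to the summed reads the log2 fold change was 1.86, and each HFpEF library stayed above each Chow library. That scale raises HFpEF 3 relative to Chow. Without HFpEF 3 the log2 fold change was 2.08, at an adjusted p of 0.0131 (limma), and Gpx3 was then the only member to meet both criteria of the study. Gpx3 made up 5.63%, 5.52% and 7.65% of the summed FPKM of all members in Chow and 22.5%, 27.6% and 11.7% in HFpEF. Of the 9 adipocyte markers, 8 were above Chow in every HFpEF library, and the groups of Lipe overlapped. Within HFpEF the sum of the markers was lowest in HFpEF 3, as was Gpx3. Between HFpEF 1 and HFpEF 2 the sum did not follow Gpx3. The 9 adipocyte genes summed to FPKM 8.27, 8.42 and 8.49 in Chow, almost all of it from the lipase gene Lipe, and to 106, 104 and 43.3 in HFpEF. In Chow, 5 of the 9 were at 0 in every library, among them Cfd (adipsin), whose FPKM in HFpEF was 35.3, 37.8 and 22.9. The part of adipocyte RNA in the Gpx3 values was not tested.

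Gpx1 (ENSMUSG00000063856, chr9:108338903-108340343, plus strand), the glutathione peroxidase of the cytosol and mitochondria, was at FPKM 39.2, 41.8 and 35.1 in Chow and 57.8, 52.8 and 65.0 in HFpEF. In the deposited values the groups were well separated, with means of 38.7 ± 3.40 and 58.5 ± 6.15 (SD, n = 3 each). The 3 HFpEF libraries were alike in these values. The log2 fold change was 0.59 (SE 0.13), with a limma adjusted p of 0.107, and 0.52 without HFpEF 3, with a limma adjusted p of 0.0309. Scaled to the summed reads it was 0.89, and each HFpEF library stayed above each Chow library. That scale raises HFpEF 3 relative to the other HFpEF libraries. Sod3 (ENSMUSG00000072941, chr5:52363791-52371418, plus strand), the extracellular superoxide dismutase, was at FPKM 12.9, 12.6 and 10.8 in Chow and 28.9, 16.3 and 26.5 in HFpEF. HFpEF 2 was the lowest of the HFpEF group and still above Chow. The log2 fold change of Sod3 was 0.94 (SE 0.23), with a limma adjusted p of 0.118, and it was 0.84 without HFpEF 3. Sod3 passed an adjusted p of 0.05 only in the fit without HFpEF 2 (adjusted p = 0.0453, limma).

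Gpx7 (ENSMUSG00000028597, chr4:108400390-108406961, minus strand) and Gpx8 encode peroxidases of the endoplasmic reticulum. The FPKM of Gpx7 was 5.39, 6.55 and 6.03 in Chow and 8.40, 8.29 and 20.5 in HFpEF, from 94 to 181 recovered reads in every library but HFpEF 3, which had 510. Gpx8 was at FPKM 14.1, 13.1 and 13.4 in Chow and 15.9, 15.7 and 23.5 in HFpEF. Both were higher in every HFpEF library, and in both HFpEF 3 was far above the other HFpEF libraries. The log2 fold change of Gpx7 was 0.90 (SE 0.35, limma adjusted p = 0.196), and without that library it was 0.48 (limma adjusted p = 0.0497). Prdx4, the peroxiredoxin of the same compartment, was at FPKM 6.00, 7.73 and 7.15 in Chow and 8.88, 6.28 and 20.7 in HFpEF. Its groups overlapped, and its log2 fold change was 0.59 with and 0.11 without HFpEF 3. The 8 fibroblast markers summed to FPKM 259, 238 and 220 in Chow and 425, 494 and 5522 in HFpEF. The high sum of HFpEF 3 came mostly from collagen genes, as Col1a1 alone was at FPKM 54.0, 87.2 and 2252 in HFpEF. Dcn was at 177, 168 and 196 and Pdgfra at 11.3, 11.6 and 12.99, so in the deposited values these markers were nearly level among the HFpEF libraries. Scaling to the summed reads raises HFpEF 3 relative to the other HFpEF libraries, so these markers are less level on that scale. Of the 8 markers, 7 were above Chow in every HFpEF library and none was at 0. The part of fibroblast RNA in the values of Gpx7, Gpx8 and Prdx4 was not tested.

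A feature that splits the glutathione peroxidases is the residue at the active site. In Gpx1, Gpx3 and Gpx4 it is selenocysteine, inserted at a TGA codon that elsewhere ends translation, and Txnrd1 and Txnrd2 carry such a codon near the end of the protein. These 5 of the 39 members have an annotated selenocysteine codon, as do 24 of 22028 protein-coding genes (0.109%). Gpx7 and Gpx8 use cysteine. The cysteine codons shown are those whose flanks had the fewest mismatches to Gpx3, 6 of 24 flanking bases in Gpx7 and 8 of 24 in Gpx8. Each line gives the codon in capitals with 12 bases on each side, from GENCODE M21 transcripts, and the position of the codon in GRCm38.
Gpx1, chr9:108339451-108339453, plus strand: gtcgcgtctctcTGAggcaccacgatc
Gpx3, chr11:54907256-54907258, plus strand: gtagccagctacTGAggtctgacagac
Gpx4, chr10:80054737-80054739, plus strand: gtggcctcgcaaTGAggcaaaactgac
Txnrd1, chr10:82896037-82896039, plus strand: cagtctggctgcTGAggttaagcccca
Txnrd2, chr16:18477772-18477774, plus strand: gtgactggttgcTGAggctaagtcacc
Gpx7, chr4:108403430-108403432, minus strand: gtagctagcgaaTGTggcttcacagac
Gpx8, chr13:113045661-113045663, minus strand: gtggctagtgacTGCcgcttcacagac
The 5 selenocysteine genes did not share a direction. Gpx1 and Gpx3 were higher in every HFpEF library, and Gpx4 and Txnrd2 were lower in every one. The groups overlapped for Txnrd1, at FPKM 9.73, 9.22 and 8.78 in Chow and 9.09, 8.82 and 10.04 in HFpEF. Scaled to the summed reads, Txnrd1 was above Chow in every HFpEF library.

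**Figure D2:**
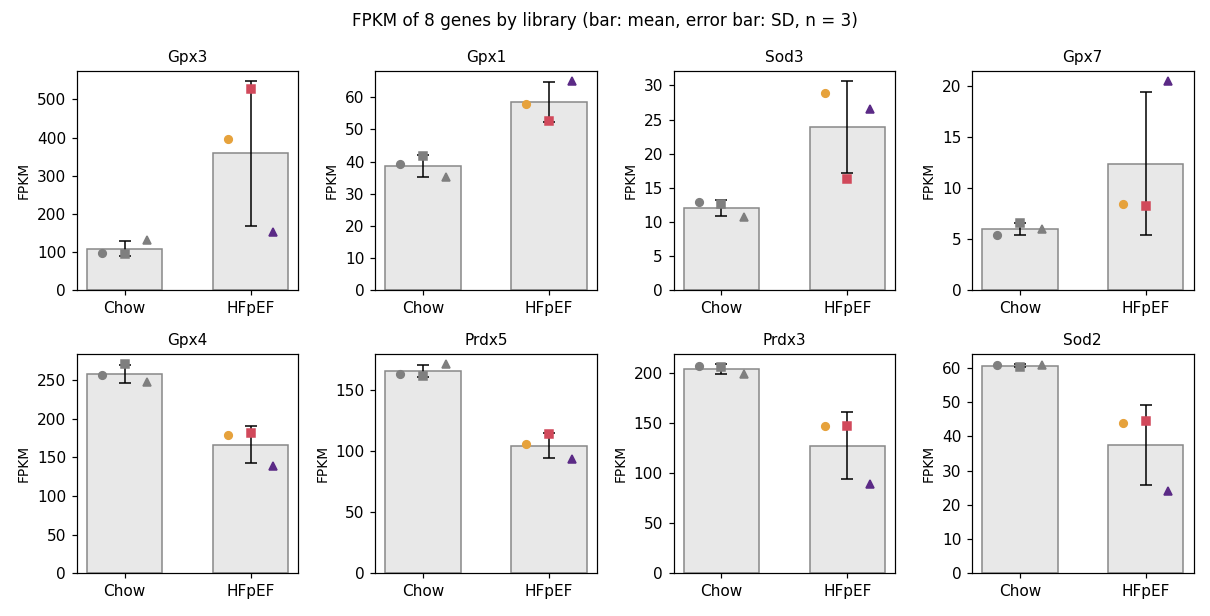
FPKM of 4 genes that were higher and 4 genes that were lower in HFpEF (vertical axes, FPKM, each from 0). Points are mice, bars are means and error bars are SD (n = 3 per group). Gpx3 has its lowest HFpEF value, 154, in HFpEF 3, while Gpx7 has its highest, 20.5, in the same library.

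Gpx4 (ENSMUSG00000075706, chr10:80047166-80056439, plus strand), which reduces lipid peroxides in membranes and thereby restrains ferroptosis, was the most abundant member in Chow. Its FPKM was 256, 270 and 248 in Chow and 179, 181 and 139 in HFpEF. The groups did not overlap, the log2 fold change was -0.64 (SE 0.15, limma adjusted p = 0.116), and without HFpEF 3 it was -0.52 (limma adjusted p = 0.0137). Prdx5 (ENSMUSG00000024953, chr19:6906697-6910106, minus strand), a peroxiredoxin of mitochondria, peroxisomes and cytosol, was at FPKM 163, 161 and 170 in Chow and 106, 114 and 93.4 in HFpEF. It had the smallest adjusted p of all members in the fit of 6 libraries, 0.0977 (limma), with a log2 fold change of -0.67 (SE 0.13). Without HFpEF 3 its log2 fold change was -0.59, at a limma adjusted p of 0.0134. In the annotation 19.1% of its exon bases overlap Trmt112 on the other strand, and the strand setting of the count is not given in the sources used here, so reads of these genes could be mixed there.

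All 4 tested members listed under the mitochondrion alone were lower in every HFpEF library in the deposited values, as were 19.7% of all tested genes. Gpx1 and Prdx5, which also act in mitochondria, were listed elsewhere. Gpx1 was higher in every HFpEF library and Prdx5 was lower in every one. Sod2 (ENSMUSG00000006818, chr17:13006846-13040063, plus strand), the superoxide dismutase of the matrix, was at FPKM 60.9, 60.1 and 60.8 in Chow and 43.9, 44.5 and 24.0 in HFpEF. Prdx3 (ENSMUSG00000024997, chr19:60864051-60874556, minus strand), the main peroxide scavenger of the matrix, was at FPKM 207, 206 and 199 in Chow and 147, 147 and 89.4 in HFpEF. Both showed very even Chow values, near-equal values in HFpEF 1 and HFpEF 2, and lower values still in HFpEF 3. The log2 fold change was -0.75 (SE 0.25, limma adjusted p = 0.159) for Sod2 and -0.71 (SE 0.22, limma adjusted p = 0.146) for Prdx3. Without HFpEF 3 it was -0.45 (adjusted p = 0.0145) and -0.47 (adjusted p = 0.0136). Txn2, the thioredoxin that serves Prdx3, was at FPKM 38.5, 41.2 and 40.4 in Chow and 29.8, 34.6 and 21.4 in HFpEF. Txnrd2 (ENSMUSG00000075704, chr16:18426384-18479073, plus strand), the reductase that recharges Txn2, was at FPKM 8.60, 7.67 and 7.78 in Chow and 5.83, 6.26 and 4.94 in HFpEF. Their log2 fold changes were -0.51 (SE 0.18) and -0.50 (SE 0.12), with limma adjusted p of 0.177 and 0.118. Without HFpEF 3 they were -0.32 and -0.40, and neither had an adjusted p under 0.05 (0.0770 and 0.0545, limma). The median log2 fold change of the 4 was -0.61, and it was -0.43 without HFpEF 3. The 13 mitochondrially encoded genes, which are not members, summed to FPKM 210480 to 227670 in Chow and to 175580, 150990 and 43979 in HFpEF. After quantile normalization the median of the 4 members was -0.46, and scaled to the summed reads it was -0.32. The 8 cardiomyocyte genes had a median log2 fold change of -0.68, which was -0.41 without HFpEF 3, -0.11 after quantile normalization and -0.38 when scaled to the summed reads. The part of cell composition in these values was not tested.

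Catalase and 4 cytosolic enzymes were also lower in every HFpEF library in the deposited values, as were 19.7% of all tested genes. Cat (ENSMUSG00000027187, chr2:103453849-103485160, minus strand), the peroxisomal catalase, was at FPKM 93.0, 91.2 and 81.1 in Chow and 72.5, 64.6 and 41.9 in HFpEF, a log2 fold change of -0.60 (SE 0.22, limma adjusted p = 0.177). Sod1 (ENSMUSG00000022982, chr16:90220754-90226329, plus strand), the cytosolic copper-zinc superoxide dismutase, was at FPKM 44.9, 46.5 and 48.6 in Chow and 34.0, 39.6 and 31.6 in HFpEF, a log2 fold change of -0.42 (SE 0.12, limma adjusted p = 0.133). In neither gene did the groups overlap, and neither had an adjusted p under 0.05 without HFpEF 3 (0.0585 for Cat and 0.0667 for Sod1, limma), where their log2 fold changes were -0.37 and -0.35. The peroxiredoxins of the cytosol showed smaller differences. Prdx1 was at FPKM 70.1, 75.4 and 72.4 in Chow and 56.5, 63.0 and 55.4 in HFpEF. Prdx2 was at FPKM 91.4, 95.1 and 87.9 in Chow and 70.0, 76.0 and 60.9 in HFpEF. Prdx6, which also reduces phospholipid peroxides, was at FPKM 37.4, 38.3 and 40.6 in Chow and 31.2, 31.4 and 25.8 in HFpEF. In these 3 genes each HFpEF library was below each Chow library, and the log2 fold changes were -0.32 (SE 0.11), -0.41 (SE 0.13) and -0.40 (SE 0.12). Without HFpEF 3, Prdx2 and Prdx6 had an adjusted p under 0.05 (0.0429 and 0.0450, limma), with log2 fold changes of -0.32 and -0.31. Txn1, the cytosolic thioredoxin, was at FPKM 37.2, 40.4 and 46.5 in Chow and 35.7, 33.1 and 52.2 in HFpEF, with overlap, and its log2 fold change was -0.06 (SE 0.20), or 0.24 when scaled to the summed reads.

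The size of the lower values depended on how the libraries were scaled. After quantile normalization the log2 fold change was -0.26 for Gpx4, -0.39 for Prdx5, -0.40 for Prdx3, -0.38 for Cat and -0.25 for Sod1. It was -0.11 for Prdx1, -0.19 for Prdx2 and -0.25 for Prdx6 in the same fit. Scaled to the summed reads, Prdx5, Prdx3, Gpx4 and Sod2 were at -0.37, -0.42, -0.35 and -0.45, while Prdx1, Prdx2, Prdx6 and Sod1 lay between -0.12 and -0.02. All 11 lower genes of this role stayed negative in both fits. Scaled to the summed reads, however, the groups overlapped in Cat, Sod1, Prdx1, Prdx2 and Txn2. Gpx4, Prdx3, Prdx5, Prdx6, Sod2 and Txnrd2 stayed below Chow in every HFpEF library, as did 6.83% of all tested genes.

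**Figure D3:**
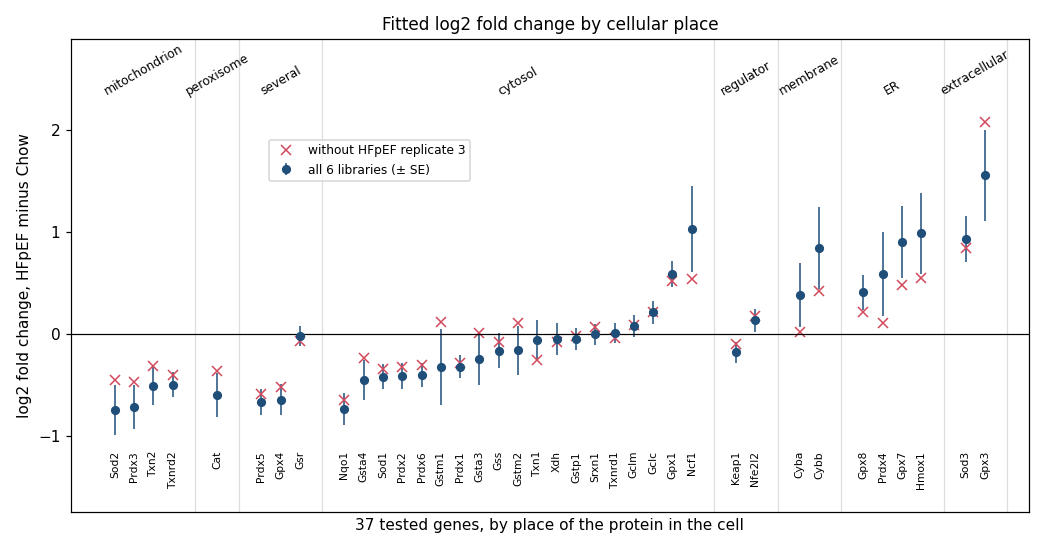
Fitted log2 fold change, HFpEF minus Chow (vertical axis), of the 37 tested genes, ordered by the cellular place of the protein (horizontal axis). Dots with bars are the fit of all 6 libraries ± SE and crosses are the fit without HFpEF 3. The 4 genes listed under the mitochondrion alone lie between -0.75 and -0.50 and the 2 extracellular genes at 0.94 and 1.56.

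Sorted by cellular place, the endoplasmic reticulum members Gpx7, Gpx8, Prdx4 and Hmox1 had a median log2 fold change of 0.75, which was 0.35 without HFpEF 3. For the extracellular Sod3 and Gpx3 the median was 1.25 with and 1.46 without that library. The 19 cytosolic members had a median of -0.16, which was -0.04 without HFpEF 3. It was -0.01 after quantile normalization and 0.13 when scaled to the summed reads. At an unadjusted p under 0.05 (limma), 2 of the 19 were higher and 5 were lower. Over all tested genes the shares were 10.2% and 13.1%. The differences between compartments were not tested.

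The glutathione genes showed little difference between the groups in the deposited values. Of 9 members, 0 had an unadjusted p under 0.05 (limma), 1 (Gclc) was above Chow in every HFpEF library and 1 (Gsta4) was below. Gclc, the catalytic subunit of the enzyme that limits glutathione synthesis, was at FPKM 4.36, 5.43 and 4.68 in Chow and 5.50, 5.66 and 5.59 in HFpEF. Gsta4, a transferase that acts on the lipid peroxidation product 4-hydroxynonenal, was at FPKM 46.0, 45.4 and 48.4 in Chow and 38.6, 40.7 and 25.1 in HFpEF. For Gclc the nearest libraries of the groups lay close together. The 2 most abundant members of the role conjugate glutathione to toxic products. Gstm1 (ENSMUSG00000058135, chr3:108012255-108017973, minus strand) was at FPKM 130, 118 and 104 in Chow and 132, 122 and 49.98 in HFpEF. Gstp1 (ENSMUSG00000060803, chr19:4035407-4037985, minus strand) was at FPKM 85.2, 76.2 and 80.0 in Chow and 76.2, 82.3 and 74.8 in HFpEF. Only HFpEF 3 was low in Gstm1, whose log2 fold change was -0.33 (SE 0.37) with and 0.12 without it, while that of Gstp1 was -0.05 (SE 0.11). Gclm, Gss and Gsr, which supply the other subunit, the second step of synthesis and the recycling of oxidized glutathione, had log2 fold changes of 0.08 (SE 0.11), -0.16 (SE 0.17) and -0.02 (SE 0.10). Scaled to the summed reads, Gss, Gsr, Gsta3, Gstm2 and Gstp1 turned from negative to positive values. Gclc and Gclm were then higher at an unadjusted p under 0.05 (limma), as were 25% of all tested genes, with log2 fold changes of 0.50 and 0.37. Gclc, Gclm, Gsr and Gstp1 were above Chow in every HFpEF library on that scale, as were 37.2% of all tested genes. Glutathione transferases of 1 class share long stretches of sequence, so the split of reads between Gstm1 and Gstm2, between Gsta3 and Gsta4 and between Gstp1 and its copies is uncertain.

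Nfe2l2 (ENSMUSG00000015839, chr2:75675513-75704641, minus strand), the gene for Nrf2 itself, was at FPKM 17.7, 17.0 and 19.3 in Chow and 18.7, 22.3 and 18.7 in HFpEF, a log2 fold change of 0.14 (SE 0.11, limma adjusted p = 0.480). The targets among the members did not share a direction. Nqo1 (ENSMUSG00000003849, chr8:107388225-107403206, minus strand), a quinone reductase often read as a marker of Nrf2 activity, was at FPKM 21.9, 27.4 and 31.3 in Chow and 17.3, 16.6 and 14.2 in HFpEF. Hmox1 (ENSMUSG00000005413, chr8:75093621-75100589, plus strand), the inducible heme oxygenase, was at FPKM 4.85, 5.11 and 3.26 in Chow and 5.73, 7.08 and 16.1 in HFpEF. Srxn1, which restores overoxidized peroxiredoxins, was at FPKM 7.65, 7.52 and 7.36 in Chow and 7.48, 8.27 and 6.83 in HFpEF. Nqo1 was lower in each HFpEF library, Hmox1 was higher in each, and Srxn1 overlapped, with a log2 fold change of -0.003 that was 0.29 when scaled to the summed reads. The log2 fold change of Nqo1 was -0.73 (SE 0.16, limma adjusted p = 0.107) and -0.65 without HFpEF 3 (limma adjusted p = 0.0578). That of Hmox1 was 0.99 (SE 0.40, limma adjusted p = 0.204) and 0.55 without it (limma adjusted p = 0.188), so the size of the Hmox1 difference rested largely on HFpEF 3. Keap1 was at FPKM 13.3, 13.0 and 13.2 in Chow and 12.5, 12.1 and 10.4 in HFpEF. Its log2 fold change was -0.18 (SE 0.10, limma adjusted p = 0.329), or 0.11 when scaled to the summed reads. On that scale Keap1, Nfe2l2 and Srxn1 were above Chow in every HFpEF library, as were 37.2% of all tested genes.

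Nrf2 binds antioxidant response elements, whose core was searched as TGACNNNGC on both strands in the RefSeq promoter windows of GRCm38.p6, each 300 bases from 250 before to 50 after the annotated start. Of the 31 members with a window, 7 held the letters (22.6%), as did 14% of 27025 genes with a window and 17.1% of the 9961 tested ones. They are shown with the match in capitals and with 10 bases on each side, read on the strand of the match. The match in Prdx1 also holds TGACTCA, the letters of an AP-1 site.
Gsta3, chr1:21240454-21240482, plus strand: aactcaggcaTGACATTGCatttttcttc
Nfe2l2, chr2:75704885-75704913, minus strand: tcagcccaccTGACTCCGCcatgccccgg
Srxn1, chr2:152105542-152105570, minus strand: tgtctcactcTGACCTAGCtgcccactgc
Gclm, chr3:122245413-122245441, minus strand: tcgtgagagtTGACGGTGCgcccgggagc
Prdx1, chr4:116685456-116685484, minus strand: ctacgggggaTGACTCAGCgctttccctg
Txnrd1, chr10:82859104-82859132, minus strand: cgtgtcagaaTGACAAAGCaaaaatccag
Sod1, chr16:90220696-90220724, minus strand: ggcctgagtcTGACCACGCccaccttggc
Of these 7 genes, Prdx1 and Sod1 were lower in every HFpEF library in the deposited values, and the groups of the other 5 overlapped. Scaled to the summed reads, Gclm, Nfe2l2, Srxn1 and Txnrd1 were above Chow in every HFpEF library, as were 37.2% of all tested genes. The groups of Prdx1, Sod1 and Gsta3 overlapped on that scale. A match of letters does not show that Nrf2 binds there. Xdh, Sod3, Gclc, Nnt, Gsta4, Hmox1, Prdx6 and Gsr had no window in the promoter sequences used here.

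The oxidant-producing members were low in these hearts except for Cyba and Xdh. Cybb (ENSMUSG00000015340, chrX:9435252-9487771, minus strand), the catalytic subunit NOX2 of the phagocyte NADPH oxidase, was at FPKM 4.20, 3.46 and 2.19 in Chow and 4.39, 4.21 and 10.5 in HFpEF. Ncf1 (ENSMUSG00000015950, chr5:134220053-134229625, minus strand), its cytosolic organizer p47phox, was at FPKM 1.25, 1.44 and 1.35 in Chow and 1.72, 2.32 and 5.78 in HFpEF, from 60 to 65 recovered reads in Chow and 87, 144 and 409 in HFpEF. Cyba (ENSMUSG00000006519, chr8:122424776-122432930, minus strand), the membrane partner p22phox, was at FPKM 31.9, 26.3 and 26.3 in Chow and 25.0, 32.5 and 60.4 in HFpEF. Ncf1 was above Chow in each HFpEF library, Cybb was above by a very small margin in HFpEF 1 and HFpEF 2, and Cyba overlapped. The log2 fold changes were 1.03 (SE 0.42) for Ncf1, 0.85 (SE 0.40) for Cybb and 0.38 (SE 0.32) for Cyba, with limma adjusted p of 0.208, 0.258 and 0.476. Without HFpEF 3 they were 0.54, 0.43 and 0.02, with limma adjusted p of 0.149, 0.382 and 0.939. Exons of Ncf1 overlap Gtf2ird2 on the other strand over 11.1% of their bases.

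The sum of the phagocyte markers was highest in the same library. The neutrophil genes S100a8 and S100a9 of the list were highest in Chow 2, at FPKM 0.737 and 2.61. In HFpEF 3 they were at 0.224 and 0.793. The 14 genes of macrophages and neutrophils summed to FPKM 293, 304 and 239 in Chow and 296, 404 and 977 in HFpEF. Of these genes, 6 were above Chow in every HFpEF library, 0 were below and 0 were at 0 in Chow. In the deposited values of HFpEF 1 the sum was within the range of Chow, and the FPKM of Cyba was below all 3 Chow values. Neither held when the values were scaled to the summed reads. The part of phagocyte RNA in the values of Cybb, Ncf1 and Cyba was not tested.

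**Figure D4:**
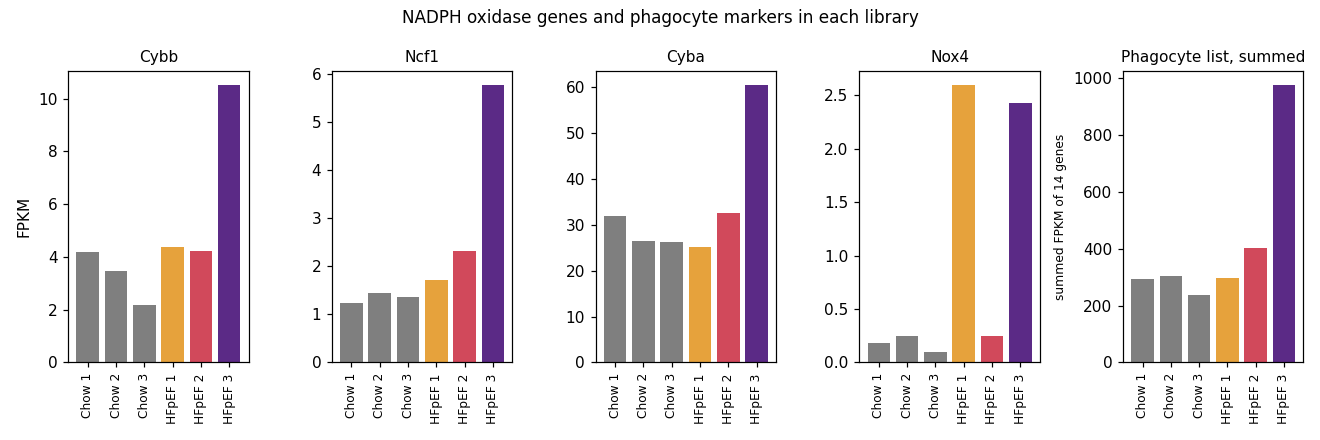
FPKM of 4 NADPH oxidase genes and summed FPKM of 14 phagocyte markers in each library (vertical axes from 0, 1 bar per mouse). Cybb, Ncf1, Cyba and the sum of the markers are highest in HFpEF 3, at 10.5, 5.78, 60.4 and 977. Nox4 is high in HFpEF 1 and HFpEF 3, at 2.60 and 2.43.

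Nox4 (ENSMUSG00000030562, chr7:87246096-87398710, plus strand), an NADPH oxidase of cardiomyocytes, fibroblasts and endothelial cells that releases mainly hydrogen peroxide, had a pattern of its own. Its FPKM was 0.182, 0.252 and 0.0976 in Chow and 2.60, 0.244 and 2.43 in HFpEF, from 22, 25 and 10 recovered reads in Chow and 305, 35 and 398 in HFpEF. HFpEF 1 and HFpEF 3 were far above Chow and HFpEF 2 was within the range of Chow, so the groups overlapped (exact two-sided permutation p = 0.2). Scaled to the summed reads, HFpEF 2 was at 0.258 and the highest Chow library at 0.226. Since only 2 libraries reached FPKM 0.5, Nox4 was not among the tested genes. In the fit with no filter its log2 fold change was 2.30 (SE 0.81, limma adjusted p = 0.289).

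Xdh (ENSMUSG00000024066, chr17:73883895-73950196, minus strand), the xanthine dehydrogenase and oxidase, was at FPKM 12.9, 15.2 and 14.99 in Chow and 11.3, 16.1 and 14.4 in HFpEF, with overlap and a log2 fold change of -0.05 (SE 0.16, limma adjusted p = 0.857), which was 0.24 when scaled to the summed reads. Nnt (ENSMUSG00000025453, chr13:119335448-119408997, minus strand), the transhydrogenase that makes NADPH in the mitochondrial matrix, is partly deleted in the C57BL/6J substrain. It was at FPKM 0.449, 0.315 and 0.223 in Chow and 0.205, 0.243 and 0.147 in HFpEF, from 19 to 45 recovered reads in Chow and 20 to 29 in HFpEF. The groups overlapped (exact two-sided permutation p = 0.2), and all 6 libraries were low. The second Nnt ID, ENSMUSG00000116207, was at 0 in all 6 libraries. All 3339 of its exon bases lie within exons of the first ID, where a read cannot be assigned to either ID alone. How such reads were counted is not given in the sources used here.

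Other genes of the same pathways, listed beside the members, gave 0 calls at the study's criteria as well. Of 12 other NADPH oxidase genes, 4 were tested, 2 were higher at an unadjusted p under 0.05 and 0 were lower. All counts of higher and lower genes in these lists follow that rule. By it, 10.2% of all tested genes were higher and 13.1% lower. Scaled to the summed reads these shares were 25% and 4.15%, and the counts of the lists on that scale are not given here. Ncf4, the p40phox subunit, was at FPKM 0.939, 0.886 and 0.287 in Chow and 1.50, 2.22 and 3.49 in HFpEF, and Rac2, the GTPase of phagocytes, at 1.18, 1.70 and 1.36 in Chow and 1.86, 3.46 and 6.36 in HFpEF. Of 8 other oxidant-producing genes, 3 were higher and 1 was lower, and of 11 genes of NADPH supply, 2 were higher and 4 were lower. Idh2, which makes NADPH in the matrix, was at FPKM 683, 745 and 686 in Chow and 429, 470 and 310 in HFpEF, and its log2 fold change was -0.83 (limma adjusted p = 0.116, and 0.0136 without HFpEF 3). G6pdx, which makes NADPH in the cytosol, was at FPKM 3.81, 3.49 and 2.55 in Chow and 4.53, 5.04 and 5.82 in HFpEF. Of 22 other glutathione and glutaredoxin genes tested, 0 were higher and 6 were lower, among them Gsto1, at FPKM 57.6, 56.6 and 54.5 in Chow and 41.2, 36.9 and 25.5 in HFpEF. Of 23 other Nrf2 targets and regulators, 4 were higher and 2 were lower. Of 13 metallothionein, methionine sulfoxide reductase and selenoprotein genes, 3 were higher and 2 were lower. Selenon, a selenoprotein of the endoplasmic reticulum, was at FPKM 8.67, 8.41 and 7.70 in Chow and 11.04, 12.2 and 14.7 in HFpEF, with a limma adjusted p of 0.107.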

How the data were processed

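Per the labels and the methods, the authors used HISAT2 for alignment and featureCounts for counting, and deposited FPKM; the submitters' processing notes name GRCm38 and mm10, while annotation, strand setting and the scaling between libraries are not given in the sources used here. All 6 libraries (3 per group, numbered by the labels) were used, and 0 columns of per-sample values were left out. Reads were recovered as whole multiples of an FPKM step times the GENCODE M21 exon length (96.1% to 96.2% of values above 0, relative tolerance 1e-06).

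FPKM divided by median-of-ratios factors (0.999 to 1.00), plus a pseudocount of 0.1, was fitted on the log2 scale with limma 3.58.1 in R 4.3.3 (eBayes with trend and robust options). A fold change on this scale understates that of low genes. Genes needed an FPKM of 0.5 or more in 3 or more libraries, and p-values were adjusted over all 14225. Values in every library are given for members with an unadjusted p under 0.05, the 2 most abundant of each role, Nnt, Cybb, Nox4, Nqo1, Hmox1 and Nfe2l2; of other lists, up to 4 genes with the smallest p, of marker lists up to 3 abundant ones. Prdx4, Gpx8, Gclc, Gsta4, Txn1, Txnrd1, Srxn1 and Keap1 were added after their values were seen. The members and lists were chosen with earlier results of these data known. The fit was tested on simulated data. Alternatives covered scaling, pseudocount, filter, moderation, array weights, voom on recovered reads, thresholds, a replicate block and leaving out each library; scaling to the summed recovered reads, values of lists without the third HFpEF library and of Nox4 and Nnt without the filter were added after seeing the data. The recovered reads per library limit precision, and their counting error is not modelled in FPKM.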

Additional observations from a re-analysis of the deposited data

How the results depend on the processing

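Of 629 member fold changes over 17 alternatives, 581 kept their direction and side of the threshold, 18 passed an adjusted p of 0.05 that they had missed and 30, in 11 members, turned direction. The causes were not tested. Over all tested genes, calls at the study's criteria were 8 higher and 0 lower. They became 2 higher with a pseudocount of 1, 3 with 0.01, 5 with an FPKM minimum of 1, 15 higher and 4 lower without trend or robust options, 59 and 11 with array weights, 0 higher with voom, 86 and 23 with an unadjusted p, and 13 and 1 with no fold threshold; quantile normalization and no filter each gave 1 lower, scaling to the summed reads (chosen after seeing the data) gave 25 and 1, and leaving out each library gave 2 to 47 higher and 0 to 12 lower. Among members, 1 was called higher with array weights, 0 to 1 when a library was left out (1 without HFpEF 3), and 6 higher and 12 lower at an unadjusted p with no fold threshold. At an unadjusted p, higher members numbered 3 without trend or robust options, 3 with voom, 12 when scaled to the summed reads and 3 to 7 when a library was left out; lower ones numbered 6 after quantile normalization, 5 when scaled to the summed reads and 8 to 13 when a library was left out. At an adjusted p with no fold threshold, array weights, which gave HFpEF 3 a weight of 0.168, called 2 higher and 6 lower, and leaving out a library gave 0 to 3 and 0 to 6, with both upper ends without HFpEF 3. The median over members became -0.0084 after quantile normalization (-0.12 to -0.036 when a library was left out), and that of superoxide and peroxide removal -0.19. Scaled to the summed reads, which raised the median of all tested genes by 0.29, these medians were 0.24 and -0.11, that of glutathione 0.13 and that of Nrf2 and its targets 0.29.

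Fold changes (log2) turned direction as follows. Quantile normalization gave 0.13 for Txn1, 0.18 for Gstp1 and 0.019 for Xdh. Array weights gave -0.044 for Txnrd1, 0.016 for Gstm1, 0.055 for Gstm2 and 0.049 for Srxn1. Voom gave 0.0016 for Gsr and 0.016 for Srxn1. Scaling to the summed reads gave 0.24 for Txn1, 0.12 for Gss, 0.27 for Gsr, 0.035 for Gsta3, 0.13 for Gstm2, 0.25 for Gstp1, 0.11 for Keap1, 0.29 for Srxn1 and 0.24 for Xdh. When a library was left out, Txn1 ran from -0.26 to 0.068, Txnrd1 from -0.044 to 0.048, Gsr from -0.077 to 0.0099, Gsta3 from -0.40 to 0.010, Gstm1 from -0.58 to 0.12, Gstm2 from -0.31 to 0.11, Srxn1 from -0.071 to 0.066 and Xdh from -0.16 to 0.091.

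Chow and HFpEF mice share replicate numbers in the labels. Same-numbered libraries did not deviate together (correlations of -0.041, -0.073 and -0.057), so the numbers were not taken as pairs. With a replicate block, 2 genes were called higher over all tested genes, and members at an unadjusted p numbered 5 higher and 11 lower. Low genes such as Nox4, Nnt, Ncf1 and Gpx7 rest on few reads, and 3 mice per group limit every comparison.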
